A study of Homo sapiens with 6 samples.

Results

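The 45 genes described here encode parts of the human centromere, the kinetochore and the spindle assembly checkpoint: CENP proteins, the NDC80, MIS12 and SKA complexes, CENP-A loading factors, shugoshins and checkpoint proteins. They were taken by gene symbol from a table of 20388 symbols, and all 45 were found in it. The table holds RNA sequencing of 6 libraries of MHCC-97H, an established human hepatocellular carcinoma line with a WT genotype label, grown in DMEM with fetal bovine serum and penicillin/streptomycin. For 24 h before RNA isolation, the cells of 3 libraries were kept with GK921, which inhibits transglutaminase 2, at 2 µM, and those of 3 libraries with its solvent DMSO. The series asks how inhibition of this enzyme, which its title connects with histone serotonylation and MYC signalling, changed the transcriptome. All libraries are of 1 cell line, with 1 dose and 1 time. Whether replicates are separate cultures is not stated, so each p-value reflects the variation among these 6 libraries, and that may be technical only.

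The kinetochore is the protein assembly by which a chromosome holds on to spindle microtubules. Nucleosomes with the histone variant CENP-A mark the centromere, the constitutive centromere-associated network (CCAN) binds them throughout the cell cycle, and the outer KMN network (KNL1, MIS12 and NDC80 complexes) joins it in mitosis and grips the microtubule. While a kinetochore is unattached, checkpoint kinases and the MAD and BUB proteins gathered there hold back the anaphase-promoting complex, so that sister chromatids stay together. RNA of many of these genes is known to rise in the G2 phase and mitosis of cycling cells, whereas other members are made throughout the cycle.

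Levels were given as FPKM, which divides the fragments of a gene by its length and by the library's total, and so they can be compared between genes per unit of length. The values of a library summed to 821498 to 831992 FPKM after GK921, against 832453 to 836182 FPKM in DMSO. Total read numbers were not used here. Steps between low values gave depths of 0.768, 0.772 and 0.864 after GK921, against 1, 0.943 and 0.871 in DMSO, relative to DMSO library 1. Of 13 hepatic and epithelial marker genes, KRT8, KRT18, KRT19 and the hepatic transcription factor HNF4A were detected. KRT8 was 1.48-fold and KRT19 1.58-fold lower after GK921, both called (limma adjusted p = 2.27e-08 and 7.54e-07), while KRT18 was at 771 to 814 FPKM after GK921 and 733 to 747 FPKM in DMSO, with a call that changed direction with median-ratio scaling. HNF4A was at 6.94 to 10.3 FPKM after GK921 and 8.14 to 10.4 FPKM in DMSO (adjusted p = 0.579). The summed level of the 13 was 2034 to 2104 FPKM after GK921, against 2644 to 2652 FPKM in DMSO. The other 9 of these markers, which include ALB, AFP, APOA1 and the hepatocellular carcinoma marker GPC3, stayed below 1 FPKM in every library, and GPC3 was listed at 0 in all. Of 10 markers of immune, endothelial and stromal cells, 8 stayed below 1 FPKM, while PECAM1 (3.44 to 4.86 FPKM after GK921, 3.54 to 4.19 FPKM in DMSO) and the lysosomal gene CD68 (92.7 to 108.9 FPKM after GK921, 103 to 113 FPKM in DMSO) were present. The summed level of these 10 markers was 98.6 to 113 FPKM after GK921, against 108 to 116 FPKM in DMSO.

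Most centromere, kinetochore and checkpoint genes were lower after GK921, while 4 were higher. The summed level of the 45 was 693.5, 680 and 687 FPKM in the GK921 libraries, against 1700, 1705 and 1688 FPKM in the DMSO libraries. The libraries of a group lay close together and the groups did not overlap; the sum was 2.47-fold lower after GK921. All 45 passed the expression limit (1 FPKM or more on average over all libraries) and had a mean above 1 FPKM in both groups. 39 of the 45 fell at an adjusted p under 0.05 (limma, Benjamini-Hochberg over 11573 tested genes), set beside 29.2% of all tested genes. 4 rose (MIS12, ZW10, CENPT and CENPC), where 46.8% of tested genes did, and NSL1 and MAD1L1 passed the threshold in neither direction. 32 fell at least 2-fold on the log2(FPKM + 1) scale used for all log2 changes here, set beside 6.24% of tested genes. The median log2 change was -1.72 over the 45, and 0.16 over all tested genes. Rescaling the libraries to the median ratio of the genes brought that second median to 0.01 and the calls over all genes to 4267 higher and 4314 lower, against 5411 and 3378 on the deposited scale; the members then numbered 39 lower and 3 higher. In bulk RNA, fewer cells in the phases that make these RNAs and less of them per cell cannot be told apart, and FPKM does not show a change in total RNA per cell.

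**Figure D1:**
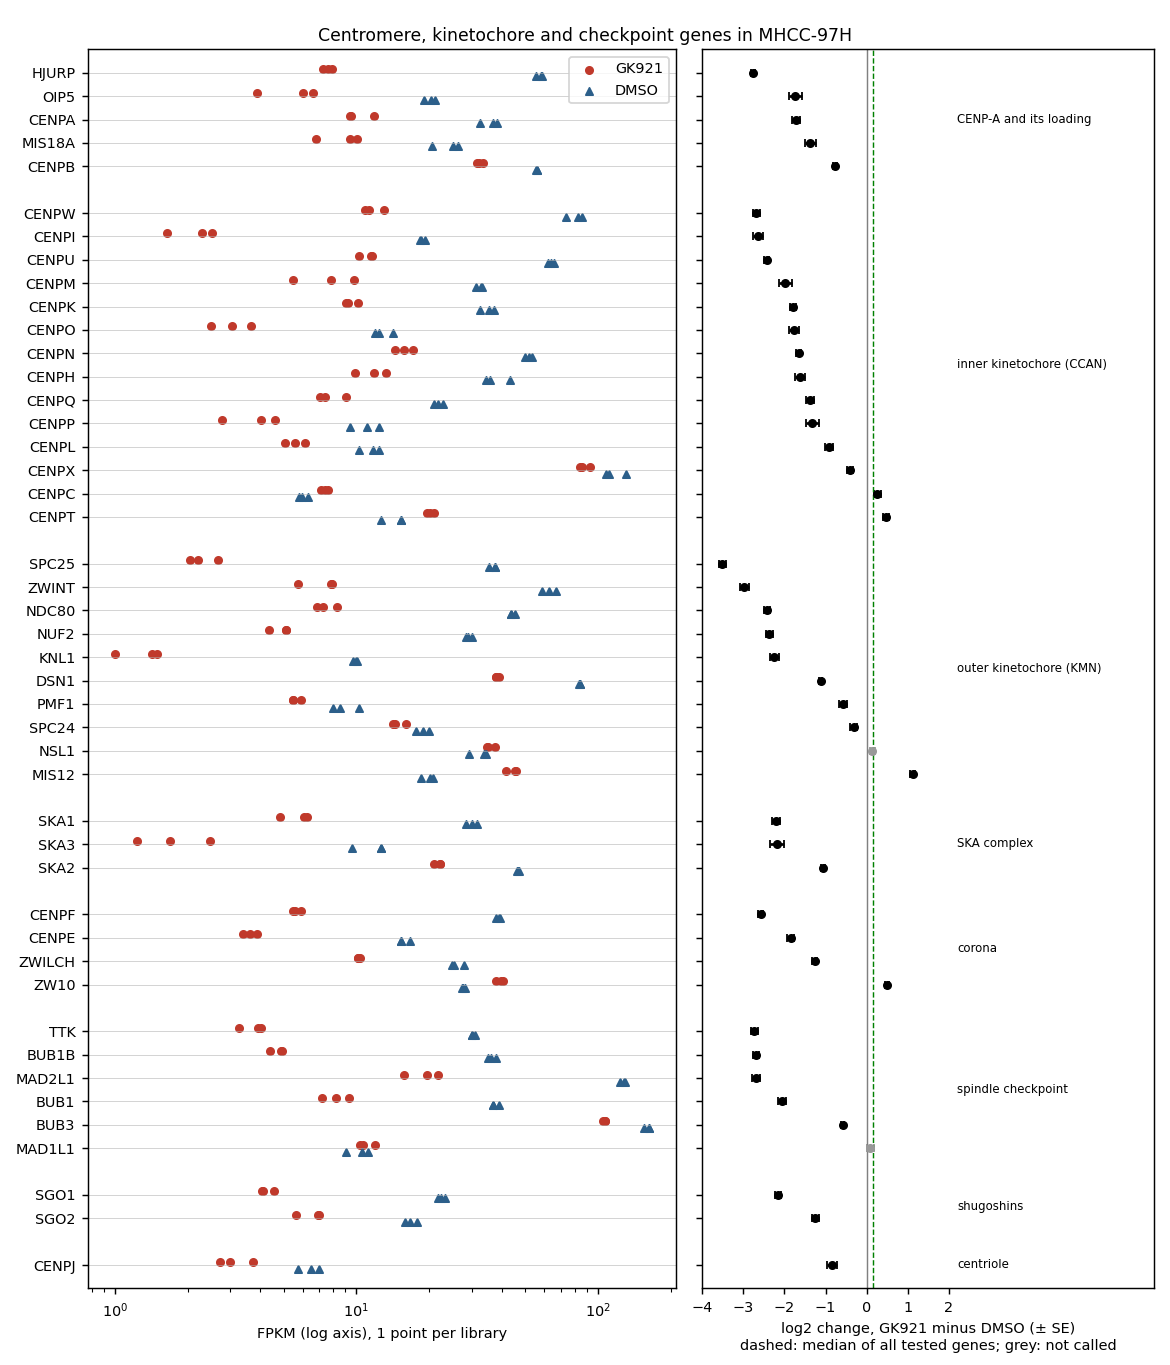
Left, FPKM of each of the 45 genes on a log axis, 1 point per library, GK921 as circles and DMSO as triangles, grouped by role; right, the log2 change with its standard error, with the median of all tested genes (0.16) dashed and genes that passed no threshold in grey. The GK921 points lie left of the DMSO points for 39 genes, right of them for 5, and overlap for MAD1L1.

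In 44 of the 45 genes the libraries of one group lay wholly on one side of those of the other, as in 78.0% of all tested genes. Spread between libraries was larger for these genes after GK921, where the median coefficient of variation was 9.31%, than in DMSO, where it was 5.12%; over all tested genes it was 6.01% after GK921 and 5.63% in DMSO. The median level of the 45 genes was also lower after GK921, at 7.68 FPKM against 30.0 FPKM in DMSO, and the GK921 libraries were the shallower ones on the whole. The part of level and of depth in this spread was not tested. Genes with a higher DMSO level had somewhat larger falls (Pearson's r of log2 level with log2 change -0.30, Spearman's rho -0.35, over 45 genes of the same libraries, as a description), and the DMSO level enters both quantities.

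**Figure D2:**
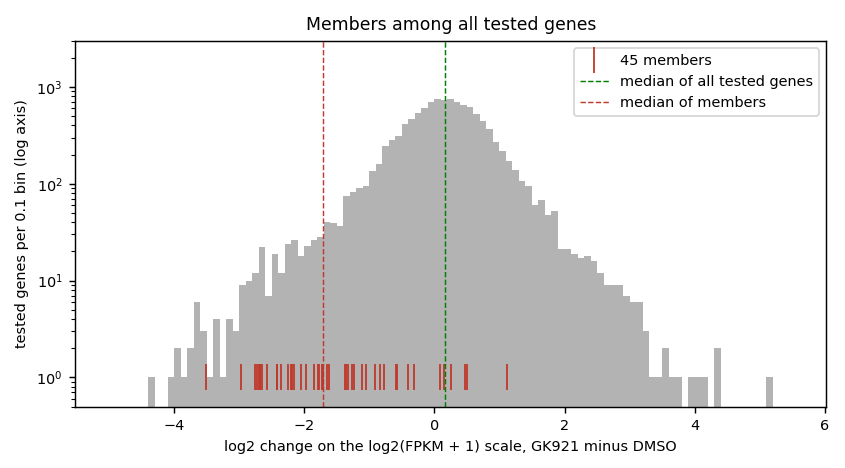
Number of tested genes per bin of 0.1 log2 units (log axis) by log2 change, GK921 minus DMSO; red ticks mark the 45 genes, dashed lines the medians of the members (-1.72) and of all tested genes (0.16). The ticks run from -3.52 (SPC25) to 1.12 (MIS12), with most of them left of the bulk of genes.

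To show which of the letters known from cell cycle promoters lie next to these genes, the RefSeq promoter windows (GRCh38.p14, 250 bases before to 50 after the gene's start) of the 3 largest falls and the 3 largest rises with a window are printed 5′ to 3′ on the strand of the gene. Capitals mark matches, on either strand, to 3 sets of letters: the cell cycle homology region (CHR, TTTGAA or TTTAAA), which the DREAM and MMB complexes bind through LIN54; the CCAAT box (CCAAT), bound by NF-Y; and 2 forms of the E2F site (TTCCCGC or TTGGCGC). In ZW10 a CCAAT match on the opposite strand and a TTGGCGC match overlap in 1 run of capitals.
SPC25: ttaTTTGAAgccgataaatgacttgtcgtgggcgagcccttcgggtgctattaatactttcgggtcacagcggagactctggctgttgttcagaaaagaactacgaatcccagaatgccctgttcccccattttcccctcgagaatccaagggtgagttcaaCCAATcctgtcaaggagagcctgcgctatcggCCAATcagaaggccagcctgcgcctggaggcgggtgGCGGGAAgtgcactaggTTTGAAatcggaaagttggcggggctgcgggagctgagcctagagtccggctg
ZWINT: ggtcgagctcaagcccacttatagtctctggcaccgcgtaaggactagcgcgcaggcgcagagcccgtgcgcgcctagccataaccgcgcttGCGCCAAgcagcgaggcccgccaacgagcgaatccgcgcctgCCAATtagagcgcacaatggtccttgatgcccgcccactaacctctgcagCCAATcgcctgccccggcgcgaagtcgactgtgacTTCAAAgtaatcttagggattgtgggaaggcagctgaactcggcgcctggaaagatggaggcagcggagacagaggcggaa
HJURP: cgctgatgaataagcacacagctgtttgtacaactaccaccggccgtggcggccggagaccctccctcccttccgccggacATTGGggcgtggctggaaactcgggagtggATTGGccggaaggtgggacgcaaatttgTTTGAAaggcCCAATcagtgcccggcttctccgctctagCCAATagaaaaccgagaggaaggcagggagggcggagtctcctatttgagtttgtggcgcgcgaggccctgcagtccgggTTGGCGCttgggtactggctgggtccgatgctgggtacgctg
MIS12: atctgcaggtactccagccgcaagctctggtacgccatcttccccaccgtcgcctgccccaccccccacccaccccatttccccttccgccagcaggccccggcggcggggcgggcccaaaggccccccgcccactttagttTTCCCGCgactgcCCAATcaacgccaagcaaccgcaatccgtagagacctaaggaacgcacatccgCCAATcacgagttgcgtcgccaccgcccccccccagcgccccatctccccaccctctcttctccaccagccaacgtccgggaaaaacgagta
ZW10: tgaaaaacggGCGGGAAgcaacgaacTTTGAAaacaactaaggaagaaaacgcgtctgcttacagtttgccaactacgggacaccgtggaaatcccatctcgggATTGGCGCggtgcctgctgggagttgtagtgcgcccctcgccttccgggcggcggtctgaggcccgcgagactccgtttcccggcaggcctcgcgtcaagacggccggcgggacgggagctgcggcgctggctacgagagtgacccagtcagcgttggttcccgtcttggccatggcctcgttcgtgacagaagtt
CENPT: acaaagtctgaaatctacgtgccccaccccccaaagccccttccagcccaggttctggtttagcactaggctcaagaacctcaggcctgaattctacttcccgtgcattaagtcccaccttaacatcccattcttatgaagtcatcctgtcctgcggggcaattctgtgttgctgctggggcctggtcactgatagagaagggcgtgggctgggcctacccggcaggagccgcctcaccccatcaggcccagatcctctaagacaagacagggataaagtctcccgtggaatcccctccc

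SPC25, at chr2:168890381-168890680 on the minus strand, held 2 CHR, 2 CCAAT and 1 E2F match, and one of the CHR matches lies across the start. ZWINT (chr10:56361210-56361509, minus strand) held 1 CHR, 2 CCAAT and 1 E2F match, and HJURP (chr2:233854486-233854785, minus strand) held 1, 4 and 1. Among the genes that rose, MIS12 (chr17:5486124-5486423, plus strand) held 2 CCAAT and 1 E2F match and no CHR match, ZW10 (chr11:113773643-113773942, minus strand) held 1 CHR, 1 CCAAT and 2 E2F matches, and CENPT (chr16:67847644-67847943, minus strand) held none. These 6 were chosen by their change, so the contrast between them is a description.

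Over the members as a whole, 38 of 45 were matched to a window, CENPJ through its RefSeq symbol CPAP; MIS18A, CENPH, CENPL, CENPM, KNL1, BUB3 and TTK were not. A CHR match occurred in 17 of the 38 (44.7%), in 27.9% of all 27305 symbols with a window and in 21.3% of the 9371 of these that were tested here. CCAAT occurred in 63.2% of members, in 39.7% of all symbols and in 43.4% of tested ones. An E2F match occurred in 28.9% of members, in 11.0% of all symbols and in 18.3% of tested ones. In the 100 bases around the start, a CHR match occurred in 13 of 38 members (34.2%), against 9.41% of all symbols and 6.96% of tested ones. All 13 were among the 27 members with a window that fell at least 2-fold on the log2(FPKM + 1) scale, and none among the other 11. In the whole window the numbers were 15 of 27 and 2 of 11, the 2 being among the 4 members that rose, and on the strand of the gene only they were 12 of 27 and 1 of 11. For CCAAT the whole-window numbers were 18 of 27 and 6 of 11, and for E2F 7 of 27 and 4 of 11. In the 100 bases around the start they were 8 of 27 and 4 of 11 for CCAAT. For E2F they were 4 of 27 and 1 of 11 there. The group of 11 is small, and these splits are a description. A match is not a site in use, and its absence says only that these letters are not in the window.

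**Figure D3:**
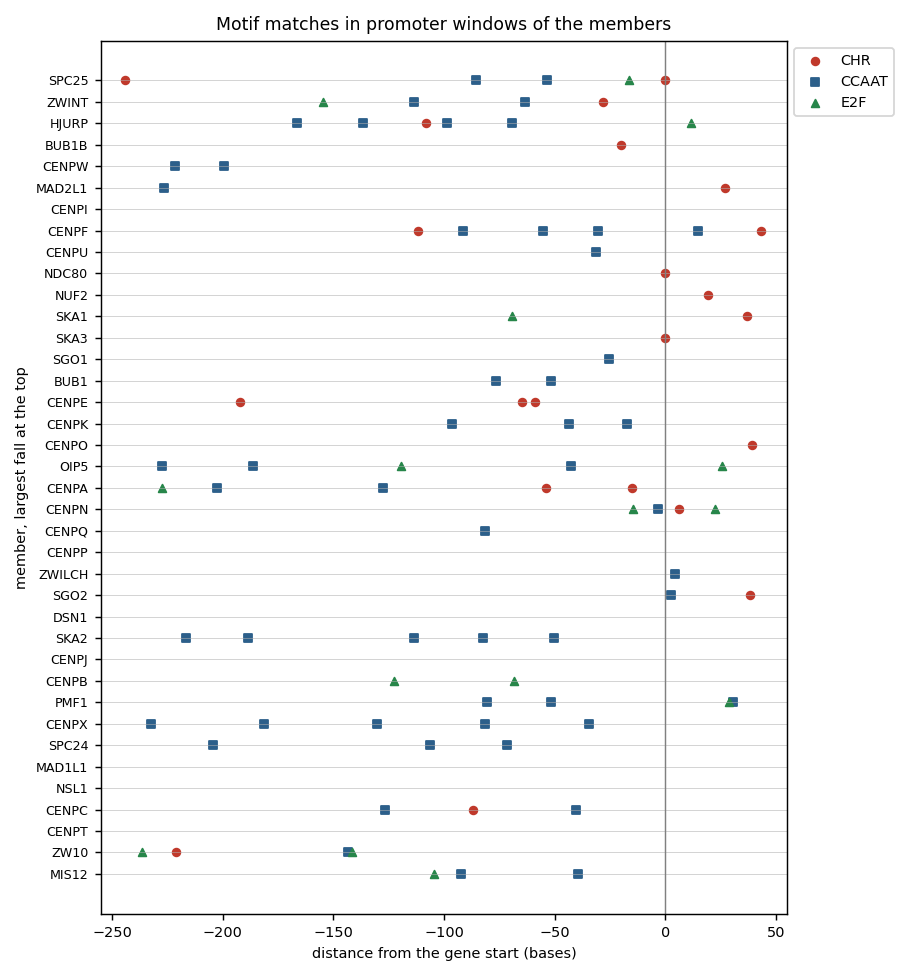
Position of CHR, CCAAT and E2F matches relative to the gene start, in bases, in the first promoter window of 38 genes, ordered from the largest fall (top) to the largest rise (bottom). CHR matches within 50 bases of the start are seen for 13 genes, all of which fell at least 2-fold, while CCAAT matches run from top to bottom.

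The histone variant CENPA and its loading factors all fell, with CENPB. HJURP, the chaperone that deposits CENP-A, was at 7.60, 7.93 and 7.27 FPKM after GK921, against 55.3, 58.2 and 58.5 FPKM in DMSO, a 7.55-fold lower mean (log2 change -2.76 ± 0.06, SE; limma adjusted p = 1.09e-09). CENPA itself was at 9.46, 9.40 and 11.8 FPKM after GK921, against 38.4, 36.9 and 32.5 FPKM in DMSO, 3.51-fold lower (log2 -1.72). Both genes had wide gaps between the groups. OIP5 (also called MIS18B) and MIS18A, which together prepare the centromere for new CENP-A, were 3.68-fold and 2.74-fold lower (log2 -1.73 and -1.37). OIP5 had the lowest DMSO level of these 5 genes, 19.0, 21.2 and 20.4 FPKM, and 3.87, 6 and 6.61 FPKM after GK921. CENPB, which binds a DNA motif in centromeric alpha satellite, had the smallest change, with 33.4, 32.2 and 31.6 FPKM after GK921 and 55.6, 56.2 and 56.0 FPKM in DMSO (1.73-fold lower, log2 -0.77 ± 0.04). HJURP was the most abundant of the 3 loading factors in DMSO, where it had 2.75 to 2.91 times the level of OIP5, whereas MIS18A had the highest mean after GK921, with ranges that meet those of HJURP.

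Of 14 CCAN genes, 12 fell and 2 rose, and their summed level was 206.5, 208 and 201 FPKM after GK921, against 513, 516 and 514 FPKM in DMSO. The shares over all tested genes, 29.2% lower and 46.8% higher, are the background for this role and for the other roles. CENPW, a histone-fold protein that pairs with CENP-T on DNA, was at 13.0, 10.9 and 11.3 FPKM after GK921, against 86.1, 73.6 and 82.5 FPKM in DMSO, 6.89-fold lower (log2 -2.68 ± 0.08, limma adjusted p = 8e-09). CENPI, which with CENP-H, CENP-K and CENP-M forms the HIKM group, was at 1.64, 2.52 and 2.30 FPKM after GK921, against 18.3, 19.2 and 18.4 FPKM in DMSO, 8.65-fold lower (log2 -2.65 ± 0.11). CENPU, which helps to bring the kinase PLK1 to kinetochores, was at 11.5, 10.2 and 11.6 FPKM after GK921, against 63.8, 62.0 and 65.9 FPKM in DMSO, 5.77-fold lower (log2 -2.43 ± 0.06). The groups stood far apart in all 3 genes. The other HIKM genes CENPM, CENPK and CENPH had log2 changes of -1.98, -1.79 and -1.62. CENPO, CENPQ and CENPP, which share a complex with CENPU, had -1.77, -1.37 and -1.33, and CENPN and CENPL, whose products pair to bind the CENP-A nucleosome, had -1.65 and -0.92. In the annotation, 38.0% of CENPP exon bases overlap IPPK, 27.0% of CENPO exon bases ADCY3 and 12.8% of CENPN exon bases CMC2. CENPU shares 11.7% of its exon bases with PRIMPOL. All of these neighbours lie on the opposite strand. Without strand, these values may include fragments of the neighbour or miss some of their own.

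Smaller and opposite changes in the CCAN came from CENPX, CENPC and CENPT. CENPX, a histone-fold protein that also serves the Fanconi anaemia pathway, was the most abundant CCAN gene in both groups, at 85.8, 93.0 and 84.4 FPKM after GK921, against 111, 131 and 108 FPKM in DMSO (1.33-fold lower, log2 -0.40 ± 0.07, limma adjusted p = 0.000754). CENPT, which reaches from DNA to the NDC80 complex, was at 21.0, 19.6 and 20.2 FPKM after GK921, against 15.2, 12.6 and 15.3 FPKM in DMSO (1.41-fold higher, log2 0.47 ± 0.08, limma adjusted p = 0.000669). It was higher in 3 of 3 GK921 libraries. Of its exon bases, 6.86% overlap THAP11, 10.8% TSNAXIP1 and 1.99% NUTF2, all on the opposite strand. THAP11 averaged 16.9 FPKM after GK921 and 13.8 FPKM in DMSO, and TSNAXIP1 0.273 and 0.243 FPKM. NUTF2 averaged 186.5 FPKM after GK921 and 198.7 FPKM in DMSO. CENPC, which links the CENP-A nucleosome to the MIS12 complex, was the least abundant CCAN gene in DMSO, at 7.63, 7.14 and 7.41 FPKM after GK921 and 5.80, 6.30 and 5.94 FPKM in DMSO (1.23-fold higher, log2 0.26 ± 0.08, limma adjusted p = 0.0159). This call depends on the scale and on 1 library. The adjusted p was 0.226 with median-ratio scaling, 0.482 with quantile normalization and 0.0523 without DMSO library 1 (0.00299 to 0.751 over all alternatives), with log2 changes between 0.06 and 0.29. CENPT over CENPW, the ratio of the partners of one histone-fold pair, was 1.61, 1.80 and 1.79 after GK921 and 0.177, 0.171 and 0.186 in DMSO.

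The outer kinetochore genes diverged most, with SPC25 as the largest fall of the 45 and MIS12 as the largest rise. SPC25, a subunit at the inner end of the NDC80 complex, was at 2.21, 2.04 and 2.67 FPKM after GK921, against 35.3, 37.4 and 37.5 FPKM in DMSO, 15.9-fold lower (log2 -3.52 ± 0.09, limma adjusted p = 2.88e-09). It was the 15th lowest change of the 11573 tested genes. Counted from the highest change, MIS12 ranked 893rd, ZW10 3418th, CENPT 3589th and CENPC 5035th. ZWINT, which binds KNL1 and helps to bring the RZZ complex, was at 7.92, 7.87 and 5.71 FPKM after GK921, against 66.8, 58.8 and 62.8 FPKM in DMSO, 8.76-fold lower (log2 -2.98 ± 0.11). NDC80 and NUF2, whose heads hold the microtubule, were 5.92-fold and 5.999-fold lower, and KNL1, the scaffold for BUB1 and BUB3, was 7.57-fold lower, at 1.00 to 1.49 FPKM after GK921 and 9.70 to 10.0 FPKM in DMSO.

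SPC24 is the direct partner of SPC25 and moved far less. It was at 16.1, 14.5 and 14.2 FPKM after GK921, against 20.0, 17.7 and 18.8 FPKM in DMSO (1.26-fold lower, log2 -0.32 ± 0.07, limma adjusted p = 0.0035). The groups were separate by a narrow gap, and the fall was not past a 1.2-fold limit (adjusted p = 0.374 in limma's treat). SPC24 was the least abundant of the 4 NDC80 complex genes in DMSO and the most abundant after GK921. Its ratio to SPC25 was 7.28, 7.09 and 5.30 after GK921 and 0.567, 0.473 and 0.503 in DMSO. The ratio of NDC80 to NUF2 overlapped between groups, at 1.63, 1.68 and 1.34 after GK921 and 1.45, 1.52 and 1.59 in DMSO.

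The 4 genes of the MIS12 complex, the joint between CCAN and outer kinetochore, went separate ways. MIS12 was at 46.0, 41.7 and 45.3 FPKM after GK921, against 20.8, 20.1 and 18.6 FPKM in DMSO, 2.24-fold higher (log2 1.12 ± 0.06, limma adjusted p = 3.48e-07). DSN1, which the kinase Aurora B phosphorylates to open the complex to CENP-C, was the most abundant KMN gene in DMSO, at 37.7, 39.0 and 38.0 FPKM after GK921 and 84.4, 84.4 and 83.3 FPKM in DMSO (2.199-fold lower, log2 -1.12). PMF1 was the least abundant KMN gene in DMSO, at 5.89, 5.48 and 5.47 FPKM after GK921 and 7.97, 8.56 and 10.3 FPKM in DMSO (1.59-fold lower, log2 -0.58). Each of these 3 had groups that did not overlap. NSL1 was at 34.8, 35.0 and 37.6 FPKM after GK921, against 34.4, 33.7 and 29.3 FPKM in DMSO (log2 0.14 ± 0.07, limma adjusted p = 0.0897), with a narrow gap between the groups. With median-ratio scaling its log2 change was -0.02. The ratio of MIS12 to DSN1 was 1.22, 1.07 and 1.19 after GK921 and 0.246, 0.238 and 0.223 in DMSO. Of the exon bases of PMF1, 23.3% belong also to the read-through gene PMF1-BGLAP on the same strand, which averaged 0.0933 FPKM after GK921 and 0.08 FPKM in DMSO.

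**Figure D4:**
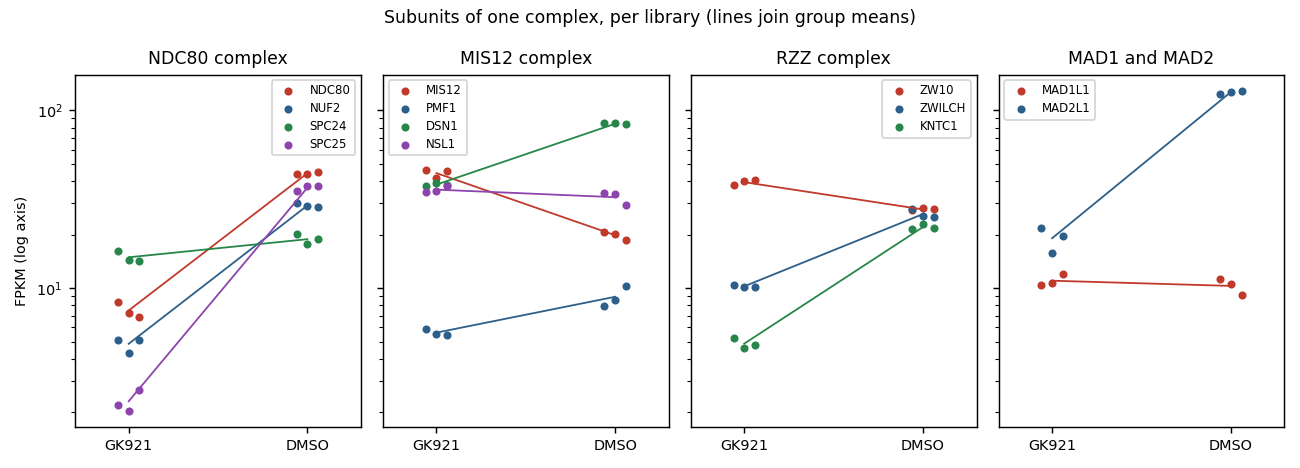
FPKM per library (log axis) of the subunits of the NDC80, MIS12 and RZZ complexes and of the MAD1 and MAD2 genes, GK921 left and DMSO right, with lines between group means. MIS12, ZW10, MAD1L1 and NSL1 have lower means in DMSO than after GK921, SPC24 and PMF1 are 1.26-fold and 1.59-fold lower after GK921, and the other subunits plotted are at least 2-fold lower after GK921.

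The SKA complex, which keeps kinetochores on the ends of depolymerising microtubules, fell in all 3 subunits. SKA1 was at 6.25, 6.08 and 4.82 FPKM after GK921, against 28.4, 31.6 and 30.0 FPKM in DMSO, 5.24-fold lower (log2 -2.21 ± 0.09). SKA3, the least abundant, was at 2.47, 1.23 and 1.69 FPKM after GK921, against 12.6, 12.6 and 9.59 FPKM in DMSO, 6.46-fold lower (log2 -2.19 ± 0.17). SKA2, the most abundant, was at 22.2, 22.2 and 21.0 FPKM after GK921, against 46.9, 46.5 and 46.1 FPKM in DMSO, 2.14-fold lower (log2 -1.06 ± 0.05). All 3 had separate groups, and SKA3 had the widest spread between GK921 libraries of the 45 genes, a coefficient of variation of 34.9%.

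Corona genes encode the fibrous outermost layer of the unattached kinetochore; 3 of the 4 members fell. CENPF, a large protein that holds dynein regulators and is a common marker of G2, was the most abundant in DMSO, at 5.87, 5.44 and 5.58 FPKM after GK921 and 39.4, 37.8 and 38.9 FPKM in DMSO (6.87-fold lower, log2 -2.58 ± 0.06, limma adjusted p = 2.09e-09). CENPE, a kinesin that carries chromosomes toward the metaphase plate, was the least abundant in DMSO, at 3.39, 3.89 and 3.62 FPKM after GK921 and 15.3, 16.7 and 15.3 FPKM in DMSO (4.33-fold lower). The groups of both genes were far apart. ZW10 and ZWILCH are subunits of the RZZ complex, which brings MAD1 and dynein to kinetochores, and they moved in opposite directions. ZW10, which also has a role in membrane traffic at the endoplasmic reticulum, was at 37.9, 39.9 and 40.6 FPKM after GK921, against 27.3, 28.1 and 27.7 FPKM in DMSO (1.42-fold higher, log2 0.49 ± 0.05, limma adjusted p = 1.36e-05). ZWILCH was at 10.4, 10.2 and 10.1 FPKM after GK921, against 28.0, 25.3 and 25.0 FPKM in DMSO (2.55-fold lower, log2 -1.27). Of the exon bases of ZWILCH, 3.26% overlap RPL4 on the opposite strand. RPL4 averaged 773.5 FPKM after GK921 and 816.2 FPKM in DMSO. KNTC1 (ROD), the remaining RZZ subunit and no member, named after its values were seen, was at 5.22, 4.59 and 4.80 FPKM after GK921, against 21.6, 22.8 and 21.7 FPKM in DMSO (4.53-fold lower). The highest RZZ gene was 8.10 times the lowest after GK921 and 1.26 times in DMSO, by group means.

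Of 6 spindle checkpoint genes, 5 fell. TTK (MPS1), the kinase that starts checkpoint signalling at the kinetochore, was at 3.27, 3.93 and 4.02 FPKM after GK921, against 30.2, 30.2 and 30.9 FPKM in DMSO, 8.14-fold lower (log2 -2.73 ± 0.08, limma adjusted p = 7.57e-09). BUB1B, which encodes BUBR1, a part of the mitotic checkpoint complex, was at 4.87, 4.39 and 4.94 FPKM after GK921, against 34.9, 36.1 and 37.7 FPKM in DMSO, 7.66-fold lower (log2 -2.70 ± 0.07). MAD2L1, which encodes MAD2, the protein that captures CDC20, was at 21.8, 15.8 and 19.7 FPKM after GK921, against 123, 128 and 129 FPKM in DMSO, 6.64-fold lower (log2 -2.68 ± 0.10). None of these groups came near each other. BUB1, a kinase that marks centromeric histone H2A for the shugoshins, was 4.53-fold lower (log2 -2.06). BUB3, which brings BUB1 and BUBR1 to KNL1, was the most abundant of all 45 genes in both groups and changed least among the called checkpoint genes, at 107, 105 and 107 FPKM after GK921 and 163, 163 and 154 FPKM in DMSO (1.51-fold lower, log2 -0.59 ± 0.03).

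MAD1L1 encodes MAD1, the kinetochore-bound partner that converts MAD2 to its active form, and was the least abundant checkpoint gene in DMSO. It was at 10.4, 10.7 and 11.96 FPKM after GK921, against 11.2, 10.6 and 9.09 FPKM in DMSO (log2 0.09 ± 0.09, limma adjusted p = 0.397). The groups overlapped, and its log2 change lay between -0.09 and 0.15 over the alternative settings. The ratio of MAD2L1 to MAD1L1 was 2.10, 1.48 and 1.65 after GK921 and 11.0, 12.1 and 14.2 in DMSO. BUB3 over BUB1B was 22.0, 23.9 and 21.6 after GK921 and 4.67, 4.51 and 4.09 in DMSO. BUB3 alone made up 15.5% of the summed level of the 45 genes after GK921 and 9.43% in DMSO. The order of the most abundant genes was BUB3, CENPX, MIS12, ZW10 and DSN1 after GK921, and BUB3, MAD2L1, CENPX, DSN1 and CENPW in DMSO. In the GK921 order ZW10 and DSN1 differed little, at 37.9 to 40.6 and 37.7 to 39.0 FPKM, and in the DMSO order so did MAD2L1 and CENPX, at 123 to 129 and 108 to 131 FPKM, and DSN1 and CENPW, at 83.3 to 84.4 and 73.6 to 86.1 FPKM.

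Both shugoshins, which guard cohesin at the centromere until anaphase, fell. SGO1 was at 4.07, 4.10 and 4.57 FPKM after GK921, against 22.4, 21.9 and 23.3 FPKM in DMSO, 5.30-fold lower (log2 -2.16 ± 0.07). SGO2 was at 5.64, 6.96 and 7 FPKM after GK921, against 17.8, 15.9 and 16.7 FPKM in DMSO, 2.57-fold lower (log2 -1.24 ± 0.09). SGO1 was the more abundant in DMSO and the less abundant after GK921, with the ratio of SGO2 to SGO1 at 1.39, 1.70 and 1.53 after GK921 and 0.794, 0.728 and 0.720 in DMSO. CENPJ has a CENP symbol but encodes a centriole protein (CPAP) that sets centriole length. It was at 2.99, 3.74 and 2.73 FPKM after GK921, against 7.01, 5.73 and 6.47 FPKM in DMSO (2.03-fold lower, log2 -0.84 ± 0.12, limma adjusted p = 0.000213), with no overlap.

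Other lists of the pathway moved to different extents. Of 34 tested further kinetochore and spindle genes, 28 fell and 4 rose, set beside 29.2% lower and 46.8% higher among all tested genes. Their median log2 change was -0.96, set beside 0.16 over all tested genes. On the log2(FPKM + 1) scale the largest falls were in AURKB, the Aurora B kinase of the inner centromere (4.01 FPKM after GK921 and 45.4 FPKM in DMSO on average, 11.3-fold lower), in ERCC6L, the PICH translocase on stretched DNA in anaphase (9.82-fold lower), and in the kinase PLK1 (7.05-fold lower). The largest rises on that scale were in CLIP1, a microtubule plus-end protein (2.25-fold higher), and in the dynein regulators NDEL1 and PAFAH1B1 (1.92-fold and 1.36-fold higher). CENPS, the histone-fold partner of CENPX, was listed at 0 in every library.

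The anaphase-promoting complex, the ubiquitin ligase that the checkpoint holds back, and its cofactors had 10 genes lower, 3 higher and 5 passing no threshold of 18 tested (median log2 change -0.27). Among all tested genes 29.2% were lower and 46.8% higher, the background for this list and for those that follow. The largest falls were in UBE2C (12.8-fold), the inhibitor FBXO5 (3.35-fold) and UBE2S (2.33-fold), of which UBE2C and UBE2S supply it with ubiquitin. The 3 rises were in subunits, 1.495-fold in CDC26, 1.46-fold in ANAPC16 and 1.40-fold in ANAPC10. Of 14 centriole assembly genes, 6 fell and 5 rose; PLK4, the kinase that starts centriole duplication, was 5.70-fold lower, its target STIL was 5.32-fold lower and SASS6, which builds the cartwheel, was 1.74-fold lower. CEP63, CEP120 and CETN2 were 1.72-fold, 1.59-fold and 1.44-fold higher. With median-ratio scaling the centriole counts were 8 lower and 3 higher, set beside 4314 lower and 4267 higher of 11573 tested genes. The 14 centriole genes are too few to set them apart from the background. All 24 tested mitotic regulators fell, CDK1 by the most (18.6-fold lower), as did 38 of 42 DNA replication genes, with GINS2 16.8-fold and MCM10 23.0-fold lower. RFC1, a subunit of the clamp loader, and ORC3, of the origin recognition complex, were 1.83-fold and 1.32-fold higher. The median log2 change was -2.05 over the mitotic regulators and -1.59 over the replication genes.

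A list of 23 genes held factors that act at CHR, CCAAT and E2F sites, and CDKN1A, which is no such factor. Of these 23, 11 fell and 10 rose, CDKN1A among the rises. Among all tested genes 29.2% were lower and 46.8% higher, so that the number of rises is near the background. MYBL2, the MMB subunit that with FOXM1 switches on mitotic genes, was at 7.26, 6.96 and 5.56 FPKM after GK921, against 94.7, 91.0 and 97.0 FPKM in DMSO (14.3-fold lower). E2F1 and E2F8 were 6.15-fold and 19.0-fold lower, E2F8 at 0.16 to 0.41 FPKM after GK921 and 4.94 to 5.63 FPKM in DMSO. LIN37 is a subunit of both the DREAM and the MMB complex. It was at 53.2, 46.5 and 55.01 FPKM after GK921, against 9.33, 9.67 and 8.94 FPKM in DMSO (5.54-fold higher, log2 2.35 ± 0.07). CDKN1A, which encodes the cyclin-dependent kinase inhibitor p21, was 2.14-fold higher, and LIN52, another subunit of both complexes, 1.87-fold higher. Other DREAM genes of the list were called in both directions. The groups did not overlap in MYBL2, LIN37 or E2F8. The part of these genes in the members' changes was not tested.

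Several members start head to head with a gene on the opposite strand, and the partners included genes called in either direction. Within 1000 bases 13 members had such a protein-coding partner in GENCODE release 29, and of the 12 partners tested 5 fell, 5 rose and 2 passed no threshold, set beside 29.2% lower and 46.8% higher among all tested genes; 12 partners are too few to set them apart from that background. NDC80 starts 2 bases from METTL4, a methyltransferase gene, yet was 5.92-fold lower, while METTL4 was at 14.6 FPKM after GK921 and 12.2 FPKM in DMSO on average (log2 0.24, limma adjusted p = 0.035, a call lost with median-ratio scaling). Next to SKA3, at 43 bases, the mitochondrial ribosomal protein gene MRPL57 had 40.5 FPKM after GK921 and 43.4 FPKM in DMSO (log2 -0.10, adjusted p = 0.107, called lower with median-ratio scaling). CENPK and PPWD1, 65 bases apart, had log2 changes of -1.79 and -0.15, the second not called (adjusted p = 0.115) but lower with median-ratio scaling. OIP5 and NUSAP1, 73 bases apart, could not be compared, as NUSAP1 was below the expression limit.

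NSL1 passed no threshold while TATDN3, 46 bases away, was higher, at 35.5 FPKM after GK921 and 15.3 FPKM in DMSO (log2 1.16). CENPP and CENPQ fell while NOL8 (log2 0.44) and MMUT (log2 0.38), 152 and 187 bases away, rose. SKA2 and PRR11, 230 bases apart, both fell, PRR11 further (log2 -2.19) than SKA2. MIS12 and DERL2, 526 bases apart, both rose, with DERL2 at 145 FPKM after GK921 and 60.6 FPKM in DMSO (log2 1.24). Exons of MIS12 and DERL2 share 301 bases on opposite strands, 9.53% of the exon bases of MIS12, and the share of MIS12 fragments that came from DERL2 was not tested.

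**Figure D5:**
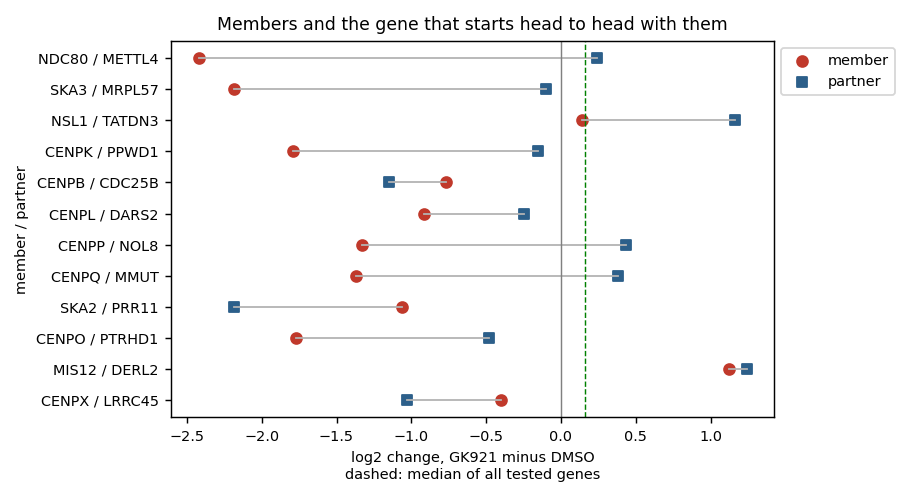
Log2 change, GK921 minus DMSO, of 12 members (circles) and of the gene that starts head to head with each (squares), ordered from the shortest distance between starts (top, 2 bases) to the longest (bottom, 805 bases), with the median of all tested genes (0.16) dashed. The partners of NDC80, CENPP and CENPQ lie right of 0 while these members lie left of it.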

How the data were processed

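Per the labels' protocols, Trizol was used to extract total RNA for Illumina libraries; neither strand nor RNA selection is stated. FastQC 0.11.5, featureCounts, HISAT2, edgeR and the build hg38 are named, per the submitters' processing notes, the other tools without versions. The authors deposited FPKM per gene symbol and library, per the file headers; absolute depth is unknown, and relative depth was estimated from the steps between low values.

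Groups came from the labels. The test of log2(FPKM + 1) was that of limma 3.58.1 (R 4.3.3), with treatment as the only term and an intensity trend, in genes averaging 1 FPKM or more, and p-values were adjusted by Benjamini-Hochberg over 11573 genes. Genes under an adjusted p of 0.05 are called; folds are ratios of mean FPKM. The code was tested on simulated data.

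The members and the gene lists were chosen with earlier results of these data known. Per-library values are given for called members with the largest and smallest change of each role, members not lower, the 10 largest changes and the highest and lowest DMSO level of a role; from other lists, up to 3 called genes per direction are named, and of head-to-head partners up to 5 by smallest distance and those opposite to their member, with PRR11, DERL2 and KNTC1 added after their values were seen. Positions came from GENCODE release 29 (GRCh38) and promoter windows from RefSeq (GRCh38.p14). Each library was left out in turn, and the pseudocount, the expression limit, 3 rescalings, a replicate block, array weights, no trend and limma's treat at 1.2-fold were tried as alternatives.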

Additional observations from a re-analysis of the deposited data

How the results depend on the processing

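Of the 45 genes, 40 kept their direction and their side of the threshold under every one of the 17 alternatives in which they were tested (16 for CENPJ, which is below a limit of 5 FPKM); the exceptions were CENPC, CENPX, SPC24, NSL1 and MAD1L1. NSL1 changed sign with median-ratio scaling (log2 -0.022), and MAD1L1 with median-ratio scaling (-0.061) and quantile normalization (-0.091); neither was called in any setting. CENPX (adjusted p = 0.0806) and SPC24 were not past a 1.2-fold limit. The median log2 change of the members was -1.81 with a pseudocount of 0.1, -1.26 with a pseudocount of 5, -1.88 with median-ratio scaling, -1.80 with upper-quartile scaling and -1.87 with quantile normalization, and -1.77 to -1.67 with 1 library left out. The log2 change of the summed level was -1.31, and -1.47 with median-ratio and -1.39 with upper-quartile scaling. Against a 1.2-fold change, 3595 genes were called higher and 2135 lower, and 37 members lower. In the 100 bases around the start, CCAAT occurred in 31.6% of members, 13.0% of all symbols and 13.1% of tested ones. An E2F match occurred there in 13.2% (5 of 38 members), 3.9% and 6.38%. On the strand of the gene only, CCAAT occurred in 42.1% of members, 23.3% of all symbols and 25.5% of tested ones. An E2F match on that strand occurred in 15.8% (6 of 38 members), 6.0% and 10.1%, and a CHR match in 34.2%, 22.0% and 16.7%. Whether same-numbered libraries are paired is not stated. Deviations of same-numbered libraries correlated at 0.03, 0.05 and -0.002, and those of differently numbered ones at -0.057 to 0.029, so no strong pairing was seen. With the replicate number as a block, 39 members were lower and 4 higher, and over all genes 5351 were higher and 3355 lower. Depth is known only in relative terms, so no counting error could be set for low values such as those of SKA3 and KNL1 after GK921.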
